A study of Danio rerio with 9 samples.

Results

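The 9 melanomas of the series were set side by side by how much leukocyte RNA their libraries held, whatever transgene they carried. A leukocyte score was computed for each tumour as the mean, over 85 tested marker genes of macrophages, neutrophils, T and NK lymphocytes and B lymphocytes, of log2 CPM relative to the mean of the 9 tumours, where CPM is a read count divided by the scaled size of its library. Tumours R161, R162, R164 and R165 had a positive score and are called immune-rich, and tumours R157, R158, R159, R160 and R163 had a negative score and are called immune-poor. All 9 tumours of the series were used, 4 in the immune-rich set and 5 in the immune-poor set. Because the sets were chosen by measured leukocyte RNA, the leukocyte genes are given as a description with no test, and the question here is which genes outside the leukocyte lists differed along the same division. The score and the genes tested came from the same libraries.

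All tumours arose in zebrafish of the genotype p53-/-; mitfa:BRAFV600E; Na-/-, so that every fish, controls included, lacked p53, carried activated BRAF under the melanocyte promoter mitfa, and lacked melanocytes of its own through the nacre mutation in mitfa. Zygotes had received MiniCoopR DNA at 20 ng per µL together with Tol2 RNA, and the vector returns mitfa to the pigment lineage along with a second gene, which was EGFP in the control and CDK13 R860Q in the other arm. Integration by Tol2 is random, so that copy number and site can differ between tumours. The immune-rich set held 3 EGFP tumours (R162, R164, R165) and 1 R860Q tumour (R161), and the immune-poor set held 1 EGFP tumour (R163) and 4 R860Q tumours (R157 to R160). The division and the vector thus overlapped in 7 of 9 tumours and cannot be fully told apart. From each tumour 1 library was made of total RNA after ribosomal RNA had been depleted. The labels do not state that each library came from a separate fish, and p-values measure the spread between these libraries.

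Total counts ran from 5518472 in R164 to 15120176 in R165, and the factors that TMM applied to these totals ran from 0.650 in R162 to 1.25 in R164. Of 30649 named genes, 26068 had at least 1 read and 15169 had enough reads to be tested. Tumours were no technical copies of each other, since no pair of libraries had a chi-square of their counts under 42.9 per degree of freedom. The median Pearson correlation of log2 CPM was 0.883 between immune-poor tumours, 0.860 between immune-rich tumours and 0.83 between the sets. On the first principal component, which held 24.5% of the variance, R162 stood at 102 and R164 at 57.2, while the other tumours lay between -48.9 and 7.56. Human CDK13 transcripts, which mark the transgene, were counted at 66.7, 751, 54.8, 162.1 and 16.2 CPM in R157 to R161 and between 0 and 0.489 CPM in the EGFP tumours. R161, the R860Q tumour of the immune-rich set, thus had the lowest transgene level of its arm.

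Melanomas hold tumour cells of the melanocyte lineage together with macrophages, lymphocytes, fibroblasts, vessels and, in a dissected fish tumour, some of the surrounding skin and muscle. In fish, macrophages are marked by mpeg1.1, which codes for a pore-forming protein of phagocytes, and killer lymphocytes by the granulysin-like nkl genes. In bulk RNA a lower level of a marker can come from fewer cells of a type or from less RNA per cell, and these cannot be told apart.

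The leukocyte lists described 2 tumours clearly and 2 less so. R164 and R165 stood at the top by the score, by the 5 markers and by share of counts, with scores of 0.73 and 1.14 and with 0.708% and 1.04% of all counts in the 4 leukocyte lists. R161 had a score of 0.18, just inside the division, and R157 one of -0.13, just outside it. In R161 the macrophage and neutrophil scores were 0.44 and 0.50, but the T and NK score was -0.47 and the B score -0.28, so that its reading as immune-rich rested on myeloid genes. R162 had a score of 0.33, with a T and NK score of 0.93 and a neutrophil score of -0.04. Its unscaled share of counts in the leukocyte lists was 0.278%, below that of R157, R158, R159 and R163 (0.382%, 0.355%, 0.285% and 0.303%) and above R160 alone (0.250%). R162 had the lowest TMM factor of the series. Computed without the TMM factors, the score was -0.28 in R162, 0.08 in R161 and 0.13 in R157, with R164 and R165 at 1.05 and 1.42, so that R162 and R157 would each change sides. Where the text gives values without R161 and R162, it is because of these readings.

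**Figure D1:**
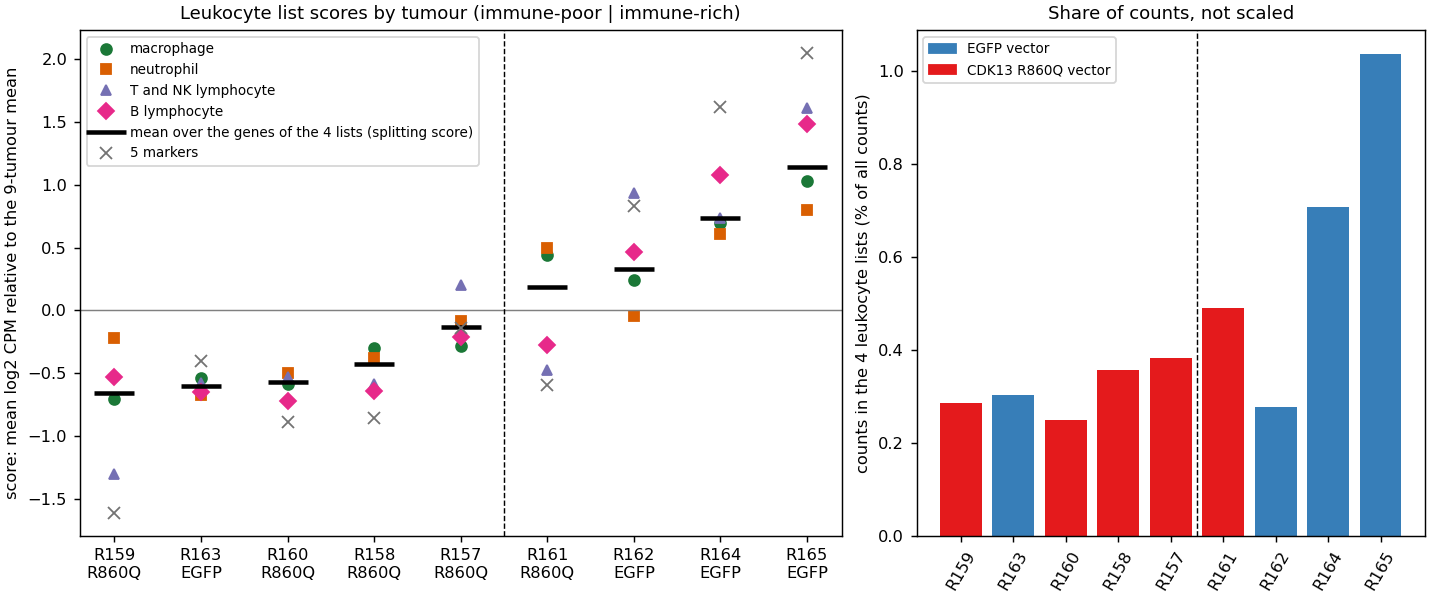
Scores of the 4 leukocyte lists, their mean and the 5 markers in each tumour (left, in log2 units relative to the 9-tumour mean; the dashed line divides the sets) and the unscaled share of counts in the same lists (right, in percent). R164 and R165 lie highest on both, while R161 has negative lymphocyte scores and R162 a share of 0.278%, within the immune-poor range.

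The 5 named markers showed the same unevenness. Normalised levels of mpeg1.1 were 21.5, 32.9, 22.1, 20.9 and 24.6 CPM in the immune-poor tumours (R157 to R160 and R163) and 18.6, 11.01, 47.9 and 72.4 CPM in R161, R162, R164 and R165. R161 and R162 were below every immune-poor tumour for this macrophage marker, and R164 and R165 above them all. The lymphocyte gene nkl.2 was at 24.8, 15.7, 2.77, 10.2 and 9.07 CPM in the immune-poor tumours and at 14.2, 368, 271 and 350 CPM in the immune-rich ones, so that all but R161 were far higher. The lectin-binding protein gene lgals3bpb ranged from 22.1 to 98.2 CPM in immune-poor tumours and was 50.0, 119, 295 and 279 CPM in R161, R162, R164 and R165. The B-cell adaptor blnk was 1.45 to 3.13 CPM in the immune-poor set against 2.98, 3.67, 9.60 and 11.4 CPM. The T-cell co-receptor gene cd4-1 was 0.291 to 1.64 CPM against 0.995, 3.67, 2.77 and 5.85 CPM. R161 lay within the immune-poor range for each of nkl.2, lgals3bpb, blnk and cd4-1.

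Of all genes tested, none passed 0.05 in edgeR's quasi-likelihood test after adjusting over all 15169 genes by Benjamini and Hochberg, where 0% were called higher and 0% lower and the smallest adjusted p was 0.0772. Without adjustment, p was under 0.05 for 1180 genes on the higher side of the immune-rich tumours, which is 7.78% of the genes tested, and for 771 on the lower side, which is 5.08%. DESeq2 on the same counts, with its own adjusted p under 0.05, called 393 genes as higher, 319 of them outside the immune lists, and 160 as lower. Outside the immune lists means only that a gene is on none of them and its symbol has no immune prefix, such as il or ccl. This holds for 14715 of the 15169 genes tested, so genes that leukocytes express can be among them. Genes with every immune-rich tumour above every immune-poor tumour numbered 411, or 2.71%, and genes with every immune-rich tumour below numbered 325, or 2.14%. The log2 fold change was above 0 for 50.8% of the genes tested. At an adjusted p under 0.10 the edgeR test had 22 genes higher, 15 of them outside the immune lists, and 1 lower. With R161 and R162 both left out the edgeR test again called 0 genes, with 1456 higher and 790 lower at an unadjusted p under 0.05. The values that follow are therefore described as levels on the higher or lower side, with their adjusted p, and not as calls.

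The genes given here are those with the smallest p on the higher side outside the immune lists, with clone names and immune prefixes passed over. By their known roles they were not leukocyte markers, with exceptions named here. Adgrb3, a gene of the brain angiogenesis inhibitor family of adhesion receptors, was at 14.2, 9.54, 7.43, 12.7 and 21.8 CPM in the immune-poor tumours and at 85.0, 88.3, 82.7 and 36.7 CPM in R161, R162, R164 and R165. The sets did not overlap, and the log2 difference was 2.47 ± 0.37 (SE; adjusted p = 0.0772 by edgeR's quasi-likelihood test). Its order within the immune-rich set was not that of the leukocyte score, since R165, with the most leukocyte RNA, had the least adgrb3. Rin1a and rgl3a belong to families of Ras effectors. Rin1a was at 4.51 to 8.05 CPM in the immune-poor tumours and at 24.7, 52.1, 61.0 and 14.8 CPM in R161, R162, R164 and R165 (log2 difference 2.64 ± 0.41). Rgl3a was at 1.89 to 5.50 CPM against 15.6, 16.9, 30.4 and 10.2 CPM (2.60 ± 0.41). For both of these Ras effector genes R164 was highest and R165 lowest of the immune-rich tumours.

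The glucuronosyltransferase genes ugt5b2 and ugt5b3 were also on the higher side. These enzymes attach sugar acid groups to small molecules. The pair overlaps in the RefSeq table and can share reads, so that they are not separate observations. Ugt5b2 was at 7.23, 4.04, 4.95, 6.11 and 3.63 CPM in the immune-poor tumours and at 13.8, 22.8, 18.8 and 29.3 CPM in the immune-rich ones, a log2 difference of 2.02 ± 0.30. Ugt5b3 was at 0.597 to 1.17 CPM against 2.98, 3.67, 3.35 and 6.29 CPM (2.41 ± 0.39). Mfng, a glycosyltransferase that modifies Notch receptors, was at 6.49, 4.77, 3.35, 5.96 and 5.85 CPM against 14.4, 14.9, 19.5 and 16.1 CPM (1.61 ± 0.25). Its immune-rich values lay within a narrow band, with an SD of 2.31 CPM around a mean of 16.2 CPM (n = 4). Sla1 and grapa code for adaptor proteins whose human relatives work in blood cells, and they were 3.05 and 3.73 times as high in the immune-rich set. Adjusted p ran from 0.0772 to 0.0899 for these 8 genes in edgeR's quasi-likelihood test.

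On the lower side the smallest p belonged to sntg2, which codes for a syntrophin of the dystrophin complex. It was at 7.01, 3.84, 6.99, 3.78 and 3.79 CPM in the immune-poor tumours and at 0.711, 0, 0.145 and 0.0547 CPM in R161, R162, R164 and R165 (log2 difference -4.46 ± 0.75, adjusted p = 0.0899 by edgeR's quasi-likelihood test). Opn7c, a member of the opsin family of light receptors, was at 34.2, 55.2, 44.3, 24.6 and 33.5 CPM against 9.10, 0.978, 3.35 and 6.45 CPM (-2.91 ± 0.52). Samd11 was at 31.3, 39.0, 32.6, 40.3 and 30.8 CPM against 6.68, 5.62, 16.1 and 13.7 CPM (-1.71 ± 0.33). Cblb, a ubiquitin ligase that restrains receptor signalling, was at 26.9, 32.6, 23.3, 54.0 and 54.3 CPM against 10.1, 13.7, 14.1 and 13.5 CPM (-1.57 ± 0.31). For each of these genes the only immune-poor EGFP tumour, R163, lay with the R860Q tumours of its set, and R161 lay with the EGFP tumours of the immune-rich set. The genes were picked by p on this division and have no overlap between the sets. The place of R163 and R161 follows from that and is no further evidence. The receptor gene gpr85 and the cytoskeletal gene epb41a were low throughout, at 1.94 to 5.77 and 1.17 to 5.28 CPM in the immune-poor set and below 0.9 CPM in the immune-rich tumours. The remaining genes of the 8, vmhc and myh7bb, code for heavy chains of striated muscle myosin, at 1.19 to 33.7 against 0 to 0.245 CPM and at 25.2 to 90.5 against 2.201 to 13.8 CPM. Muscle RNA also differed between tumours, as given further on. Myh7bb was highest in R163 (90.5 CPM, muscle score -2.06) and lowest in R162 (2.201 CPM, muscle score 2.12). With the muscle score as a term the log2 difference went from -2.96 to -3.54 for myh7bb and from -6.89 to -4.87 for vmhc. The part of muscle tissue in either difference was not tested beyond this term.

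All 16 of these genes kept their direction when vector was added as a term, in the EGFP tumours alone, in the R860Q tumours alone, and with R161 and R162 left out. None of the 16 had sets that overlapped. They were picked by p on this same comparison, so these counts describe them and are no further evidence.

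**Figure D2:**
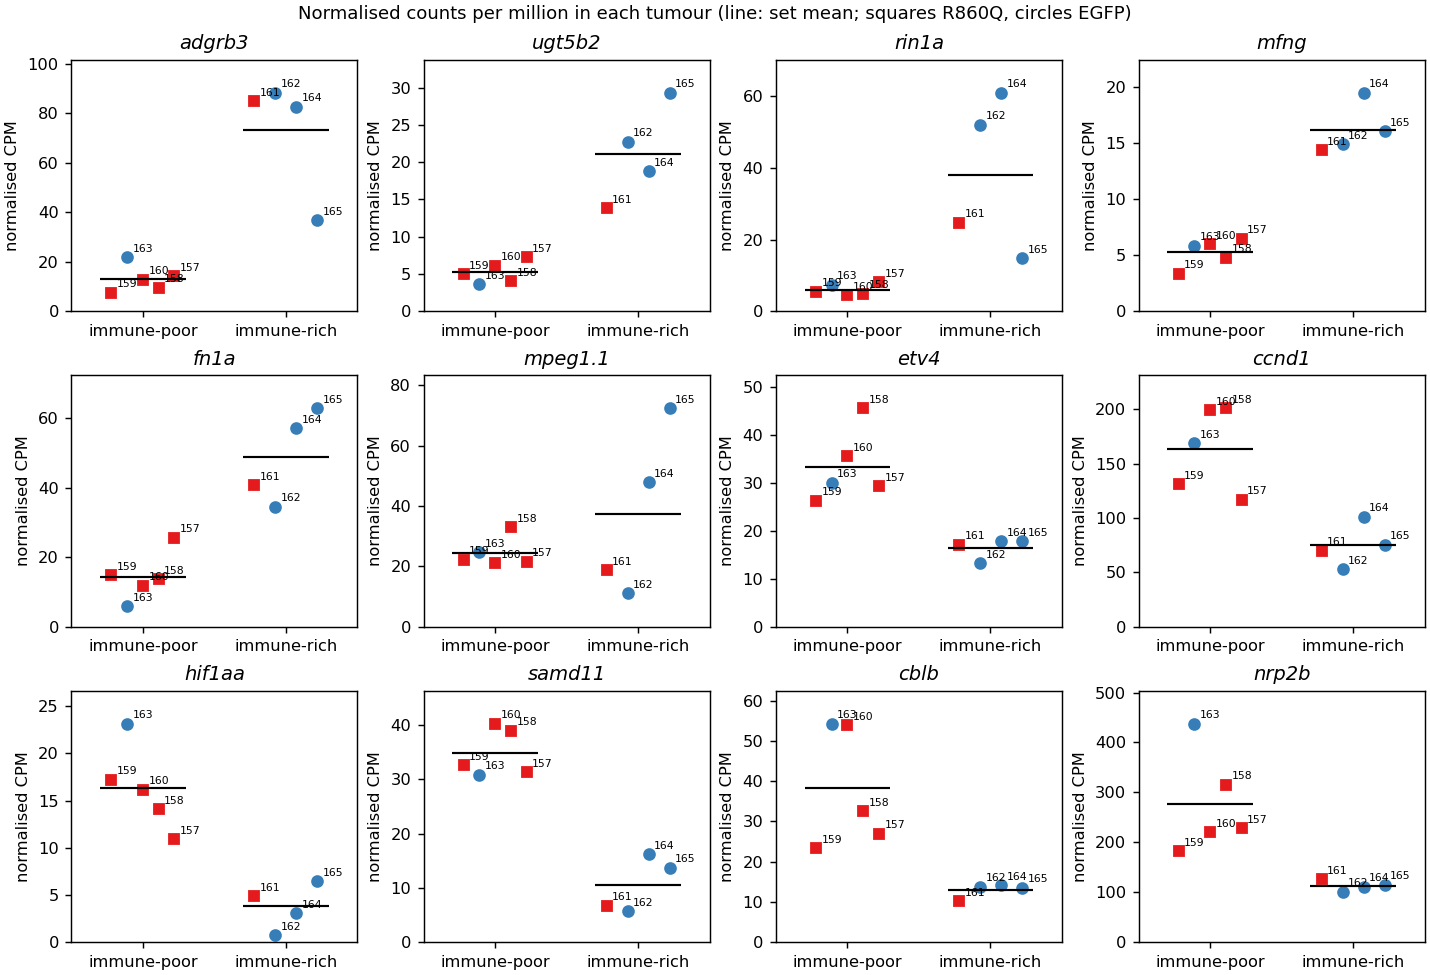
Normalised CPM of 12 genes in each tumour (linear axes from 0; squares are R860Q and circles EGFP tumours, labelled with their numbers; lines are set means). For 11 of them the sets do not overlap, while for the macrophage marker mpeg1.1 R161 and R162 lie below all immune-poor tumours.

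Genes of the melanocyte lineage lay on the higher side more often than on the lower. Of 26 tested members 21 had a positive log2 fold change, and the median was 0.49 against 0.01 for all genes. At an unadjusted p under 0.05, 5 were higher and 1 lower, against 7.78% and 5.08% of all genes. Tyrp1b, an enzyme of eumelanin synthesis, was at 1160, 1587, 509, 698 and 2293 CPM in the immune-poor tumours and at 6402, 2198, 2503 and 5813 CPM in R161, R162, R164 and R165 (log2 difference 1.76 ± 0.54, adjusted p = 0.212 by edgeR's quasi-likelihood test). R163 lay within the immune-rich range for this gene. Mchr2, a receptor for melanin-concentrating hormone, was at 20.8 to 65.0 CPM against 108, 558, 133 and 128 CPM (2.61 ± 0.57, adjusted p = 0.119), and R162 stood far above the others. Mitfa itself, the master regulator that the vector restores, had means of 141 ± 49.7 CPM in the immune-poor set (SD, n = 5) and 141 ± 62.6 CPM in the immune-rich set (SD, n = 4). The melanocyte median was 0.75 in the R860Q tumours alone, where R161 had the highest melanocyte score of the series (0.71), and -0.01 in the EGFP tumours alone. These subsets rest on 1 tumour on one side each, and their medians over all genes were -0.10 and 0.14.

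Neural crest genes, which mark the embryonic source of pigment cells, went both ways. Of 26 tested members 13 lay on the higher side, and the median was -0.12. Sox5, which acts in pigment cell development, was at 150, 145, 185, 124 and 322 CPM in the immune-poor tumours and at 100, 85.4, 101 and 77.6 CPM in the immune-rich ones (log2 difference -1.03 ± 0.32, adjusted p = 0.213 by edgeR's quasi-likelihood test). Sox10, the neural crest and melanoma factor, was at 360 to 782 CPM against 293 to 348 CPM, also without overlap (-0.65 ± 0.31, adjusted p = 0.418), and it is named here after its values were seen. Sox9b was at 0.291 to 1.89 CPM against 5.26, 2.94, 29.2 and 4.15 CPM (3.003 ± 0.73, adjusted p = 0.134), with R164 far above the rest. Of the genes of iridophores and xanthophores, the other pigment cells of fish, 13 of 31 were higher and the median was -0.24, which became 0.40 with vector as a term.

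Targets and feedback inhibitors of the MAPK pathway, through which BRAF acts, were on the lower side in part. Of 22 tested members 6 were lower and 3 higher at an unadjusted p under 0.05, against 5.08% and 7.78% of all genes. The median was -0.19, with -0.35 in the EGFP tumours alone and -0.54 in the R860Q tumours alone. Etv4, a transcription factor induced by ERK signalling, was at 29.2, 45.5, 26.2, 35.5 and 30.0 CPM in the immune-poor tumours and at 17.1, 13.2, 17.8 and 17.8 CPM in the immune-rich ones (log2 difference -1.01 ± 0.23, adjusted p = 0.122 by edgeR's quasi-likelihood test). The cyclin gene ccnd1 was at 117, 201, 131, 199 and 169 CPM against 69.9, 52.8, 101 and 75.5 CPM (-1.12 ± 0.28, adjusted p = 0.138). The sets did not overlap for either gene, and both differences were of like size within each vector (etv4 -0.92 and -0.99, ccnd1 -1.17 and -1.20). Both genes were picked by p on this same comparison, and each vector alone has 1 tumour on one side. These values are therefore no further evidence. Spred2b, an inhibitor of Ras signalling named after its values were seen, was the third member without overlap, at 160 to 301 CPM against 50.1 to 131 CPM. Members without overlap on the lower side were 13.6% of the list against 2.14% of all genes. Members on the higher side included the phosphatase genes dusp5 and dusp1, with log2 differences of 1.02 and 0.87. The list held dusp2, which is also on the T and NK list.

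Cell cycle genes lay mostly on the lower side by small amounts. Of 66 tested members 17 were on the higher side. At an unadjusted p under 0.05, 1 was higher and 6 lower, against 7.78% and 5.08% of all genes. The median was -0.24, with a range of -0.42 to -0.11 when each tumour was left out in turn. The spindle gene tpx2 was at 48.7, 71.6, 14.1, 44.2 and 64.3 CPM in the immune-poor tumours and at 13.9, 15.9, 29.1 and 21.9 CPM in the immune-rich ones (-1.26 ± 0.43, adjusted p = 0.256 by edgeR's quasi-likelihood test). R159 lay among the immune-rich values, and its cell cycle score of -0.90 was the lowest of all tumours. Orc6, the 1 member higher at that unadjusted p, was at 4.12 to 10.2 CPM in the immune-poor tumours. It was at 11.7, 20.1, 19.1 and 6.78 CPM in R161, R162, R164 and R165 (1.09 ± 0.37, adjusted p = 0.256 by edgeR's quasi-likelihood test). The list scores overlapped, at -0.11 ± 0.24 in the immune-rich set (SD, n = 4) and 0.08 ± 0.58 in the immune-poor set (SD, n = 5). DNA repair genes, of which 15 of 47 were on the higher side, had a median of -0.20.

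Stromal genes were higher in R165 more than in the set as a whole. Of 60 tested fibroblast and matrix genes 40 were on the higher side. At an unadjusted p under 0.05, 11 were higher and 1 lower, against 7.78% and 5.08% of all genes. The median was 0.56, but it was -0.01 without R165. The fibroblast score was 1.16 in R165 and -0.09, -0.45 and 0.03 in R161, R162 and R164. Col1a2, a chain of type I collagen that was named after its values were seen, was at 237 CPM in R165 and at 24.7 to 65.9 CPM in the other immune-rich tumours, against 10.99 to 40.0 CPM in the immune-poor set. Fibronectin did not share this pattern. Fn1a was at 25.6, 13.6, 14.7, 11.8 and 5.85 CPM in the immune-poor tumours and at 40.8, 34.5, 57.2 and 62.9 CPM in the immune-rich ones (log2 difference 1.77 ± 0.38, adjusted p = 0.119 by edgeR's quasi-likelihood test), and it was 1.62 without R165. Col5a3a, a chain of type V collagen, was at 0.494 to 2.04 CPM against 2.68 to 6.26 CPM.

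Pericyte and smooth muscle genes, which mark vessel walls, had 17 of 21 members above 0 and a median of 0.83. That median was 0.34 without R165 and -0.03 in the R860Q tumours alone, where the median over all genes was -0.10. The smooth muscle myosin gene myh11a was at 6.12 to 14.2 CPM in the immune-poor tumours and at 28.4, 8.32, 18.04 and 35.3 CPM in R161, R162, R164 and R165. Endothelial genes as a list were level, at a median of 0.05 and 25 of 44 above 0, yet single members lay far apart on either side. The semaphorin and VEGF co-receptor nrp2b was at 228, 315, 182, 220 and 438 CPM in the immune-poor tumours and at 126, 101, 111 and 114 CPM in the immune-rich ones (-1.29 ± 0.31, adjusted p = 0.131). Its relative nrp1a, named after its values were seen, was at 28.2 to 61.6 CPM against 79.3, 268, 94.2 and 79.7 CPM (1.64 ± 0.42, adjusted p = 0.141 by edgeR's quasi-likelihood test). The venous receptor ephb4b was at 21.0 to 42.4 CPM against 7.58 to 14.3 CPM (-1.23 ± 0.29). The vessel growth factor vegfaa was at 4.15 to 15.0 CPM against 24.4, 23.5, 25.9 CPM in R161, R162 and R164, with R165 inside the immune-poor range. Keratinocyte genes, 43 of 49 of them above 0, had a median of 0.64, which was -0.24 without R165, where the keratinocyte score was 1.59.

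Among signalling pathways, Notch genes had a median of 0.40, with 12 of 19 above 0. At an unadjusted p under 0.05, 4 were higher and 1 lower, against 7.78% and 5.08% of all genes. The median lay between 0.15 and 0.61 when each tumour was left out. It was 0.55 in the EGFP tumours alone and 0.31 in the R860Q tumours alone. Beside mfng, the ligand gene jag1a was at 1.04 to 2.48 CPM in the immune-poor tumours and at 2.70, 4.89, 11.8 and 5.74 CPM in the immune-rich ones (1.71 ± 0.45). For TGF-β and BMP signalling 8 of 34 tested genes were lower and 4 higher at an unadjusted p under 0.05. Of all genes, 5.08% were lower and 7.78% higher at that p. The members without overlap on the lower side numbered 5, or 14.7% of the list against 2.14% of all genes. They were smad2, which carries the TGF-β signal, smad9, which carries the BMP signal, the inhibitors smad6b and smad7, and the co-repressor skib. Smad6b was at 6.71, 27.7, 11.2, 39.3 and 14.2 CPM against 3.70, 4.65, 3.06 and 5.19 CPM (-2.24 ± 0.51, adjusted p = 0.119 by edgeR's quasi-likelihood test). Smad3a, the other carrier of the TGF-β signal, lay on the opposite side at 4.56 to 12.5 CPM against 18.5, 28.1, 17.8 and 14.8 CPM (1.21 ± 0.33, adjusted p = 0.167). Of Wnt genes 10 of 24 were on the higher side, and the ligand wnt7ba was at 1.35 to 5.25 CPM against 0 to 0.995 CPM. Fzd10, also of the Wnt list, lay the other way at 2.33 to 7.67 CPM in the immune-poor tumours. It was at 5.83, 1.22, 48.3 and 26.9 CPM in R161, R162, R164 and R165 (2.39 ± 0.81), so that R161 and R162 were not above the immune-poor range.

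**Figure D3:**
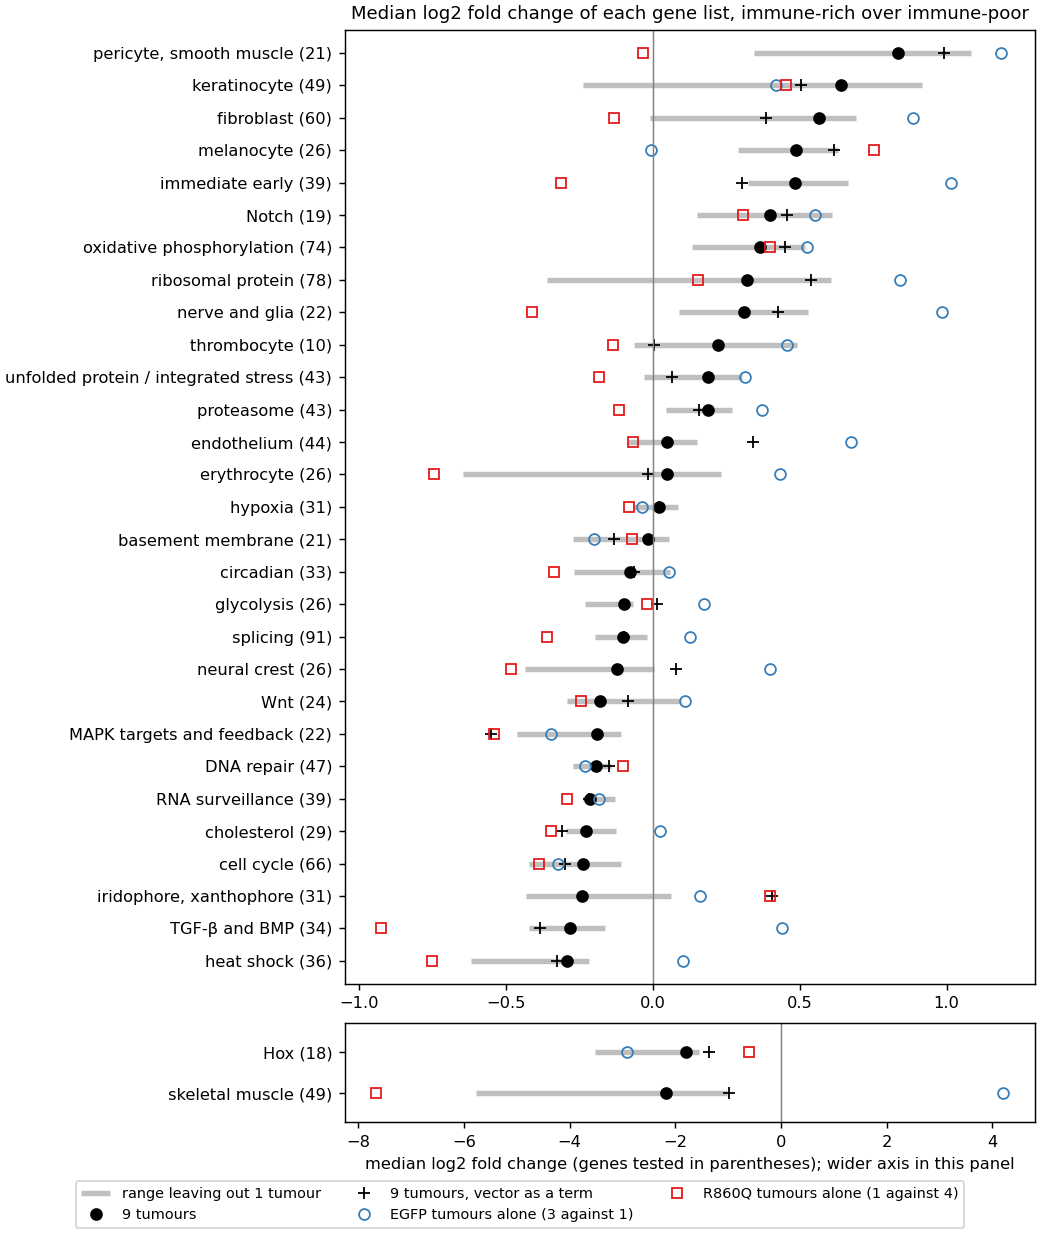
Median log2 fold change of immune-rich over immune-poor tumours for 31 gene lists outside the immune lists (points), with vector as a term (crosses), within each vector (open symbols) and the range when 1 tumour is left out (bars). Notch and oxidative phosphorylation lie above 0 and MAPK targets, RNA surveillance and cell cycle below 0 in all of these, while fibroblast, immediate early and muscle medians differ in sign between the vectors.

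The ribosomal and respiratory lists moved most with R162. Of ribosomal protein genes 62 of 78 lay above 0, at a median of 0.32, but -0.36 without R162, whose ribosomal score was 1.38 while that of R165 was -1.20. Rps3a was at 9638 CPM in R162 and at 913 to 2728 CPM in the other immune-rich tumours, against 1118 to 3106 CPM in the immune-poor set. Nuclear genes of oxidative phosphorylation had 59 of 74 members above 0 and a median of 0.37, which was 0.13 without R162 and -0.08 without R161 and R162. The oxygen-sensing factor hif1aa was at 10.9, 14.1, 17.2, 16.1 and 23.2 CPM in the immune-poor tumours and at 4.83, 0.734, 3.06 and 6.45 CPM in the immune-rich ones (-2.06 ± 0.48, adjusted p = 0.124 by edgeR's quasi-likelihood test). Pdk2b, a kinase that holds pyruvate out of the mitochondrial cycle, was at 3.54 to 15.7 CPM against 29.1, 43.5, 15.9 and 20.1 CPM (1.82 ± 0.47). The hypoxia list as a whole was level at a median of 0.02. The glucose transporter gene slc2a3a was at 1.45 to 8.65 CPM against 0.426 to 1.09 CPM, and glycolysis genes had a median of -0.10 with 10 of 26 above 0. Cholesterol and lipid synthesis genes had a median of -0.23 with 11 of 29 above 0.

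Stress genes diverged. Only 6 of 36 heat shock and chaperone genes lay on the higher side, and their median was -0.29. That median was 0.10 in the EGFP tumours alone and -0.75 in the R860Q tumours alone, where the medians over all genes were 0.14 and -0.10. Relative to all genes the list thus lay at -0.04 and -0.65, on the lower side in both. The small heat shock protein gene cryabb, which muscle also makes, was at 1.49, 11.9, 25.4, 8.72 and 27.8 CPM in the immune-poor tumours and at 1.14, 0.245, 0.873 and 1.58 CPM in the immune-rich ones, with R157 inside the immune-rich range. Its highest level was in R163 and its lowest in R162, whose muscle scores were -2.06 and 2.12. The log2 difference of cryabb was -3.84, and -3.96 with the muscle score as a term. The part of muscle tissue in it was not tested beyond this term. Cebpb, a transcription factor of stress and inflammation, was at 111, 116, 93.5, 78.2 and 105 CPM against 148, 190, 242 and 196 CPM (0.94 ± 0.24, adjusted p = 0.138 by edgeR's quasi-likelihood test). Unfolded protein response genes as a list had a median of 0.19 and proteasome genes one of 0.19. Immediate early genes, which are also induced by handling of tissue, had 31 of 39 members above 0 and a median of 0.48, but -0.31 in the R860Q tumours alone. Their score was 0.49, 0.38 and 0.51 in the 3 immune-rich EGFP tumours and -0.49 in R161. Egr3 was accordingly at 11.01, 22.4 and 11.9 CPM in R162, R164 and R165 and at 1.14 CPM in R161. Circadian genes had a median of -0.08 and 13 of 33 members above 0.

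RNA processing genes lay on the lower side by small amounts. For splicing factors 28 of 91 lay above 0 and the median was -0.10. It was 0.13 in the EGFP tumours alone and -0.36 in the R860Q tumours alone, where the medians over all genes were 0.14 and -0.10. Of the splicing factors 7 had no overlap on the lower side, or 7.69% of the list against 2.14% of all genes. There were none on the higher side, against 2.71% of all genes. At an unadjusted p under 0.05 in edgeR's quasi-likelihood test, 7 of the 91 splicing factors were lower and 0 higher, against 5.08% and 7.78% of all genes. Hnrnpr was at 22.5 CPM in R163 and 28.5 to 29.03 CPM in the other immune-poor tumours and at 12.1, 13.2, 19.5 and 16.7 CPM in the immune-rich ones (-0.84 ± 0.22, adjusted p = 0.149 by edgeR's quasi-likelihood test). The RNA surveillance list, which holds the nuclear exosome that degrades faulty RNA and the nonsense-mediated decay factors, had 13 of 39 above 0, a median of -0.21, and 5 members without overlap on the lower side, or 12.8% of the list against 2.14% of all genes. The 1 member without overlap on the higher side is 2.56% of the list, near the 2.71% of all genes. At an unadjusted p under 0.05 in edgeR's quasi-likelihood test, 2 of the 39 RNA surveillance genes were lower and 1 higher. The shares of all genes at that p were 5.08% and 7.78%, so this measure shows no clear excess on the lower side. Exosc10, a catalytic exosome subunit, was at 21.1 to 45.4 CPM against 11.7 to 20.6 CPM (-0.89 ± 0.28), while the core subunit exosc9 lay the other way at 8.82 to 18.9 CPM against 21.4 to 40.1 CPM (1.24 ± 0.29). The fish's own cdk13 was at 20.8 to 41.7 CPM in the immune-poor set and at 18.6 to 24.0 CPM in the immune-rich set (-0.57 ± 0.24, adjusted p = 0.356). The sets overlapped for cdk13, since R159 lay at the low end of the immune-poor tumours.

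Muscle and Hox genes differed most in size and were the least even. Of 49 tested skeletal muscle genes 4 were on the higher side and the median was -2.18. The muscle score was 1.42, 3.44 and 3.001 in R158, R159 and R160 and 2.12 in R162, and it lay between -2.32 and -1.41 in R157, R161, R163, R164 and R165. Both sets thus held tumours with and without muscle RNA, and the median was 4.21 in the EGFP tumours alone and -7.66 in the R860Q tumours alone. The part of muscle in the other differences was tested only by adding the muscle score as a term, under which edgeR again called 0 genes (1038 higher and 782 lower at an unadjusted p under 0.05) and all 16 genes of smallest p kept their direction. Hox genes, which mark position along the body axis, had 1 of 18 above 0 and a median of -1.80, with -2.92 and -0.61 within EGFP and R860Q. The Hox score was 1.51, 1.68, -1.04, 1.84 and 1.61 in the immune-poor tumours and 1.17, -1.36, -3.49 and -1.92 in R161, R162, R164 and R165. R159 and R161 each lay with the opposite set, and where on the fish each tumour grew is not given in the labels. Hoxd4a was at 1.65 to 13.1 CPM against 0.291 to 2.56 CPM. Nerve and glia genes had a median of 0.31, erythrocyte genes 0.05 and thrombocyte genes 0.22. The glial gene s100b, named after its values were seen, was at 646 CPM in R162 and at no more than 4.62 CPM in any other tumour.

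**Figure D4:**
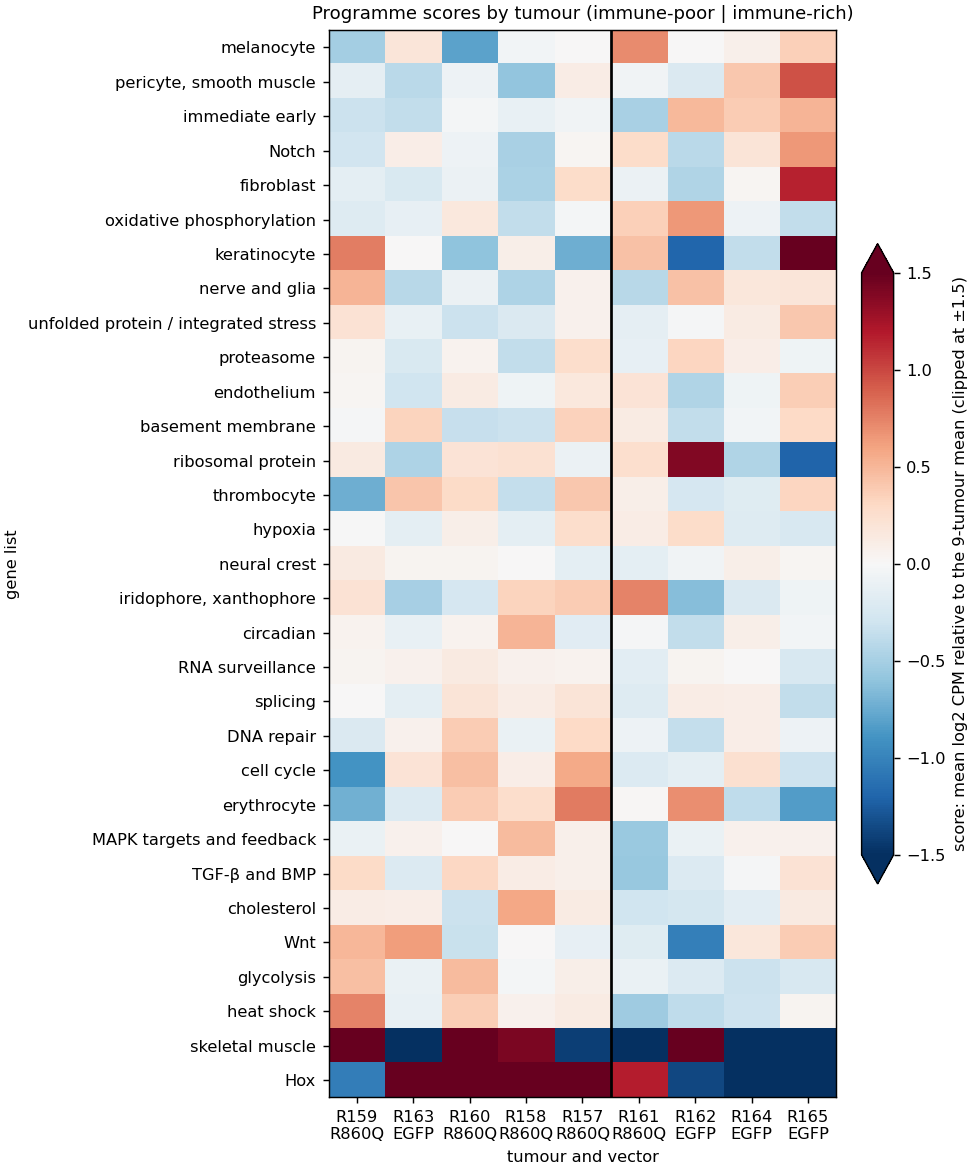
Scores of 31 gene lists in each tumour (colour, mean log2 CPM relative to the 9-tumour mean, clipped at 1.5 either way), with tumours ordered by leukocyte score and lists by the difference between sets. Muscle and Hox lists hold the most extreme scores in both sets, and the fibroblast and keratinocyte lists are highest in R165.

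Lists of immune functions other than the leukocyte lists were described apart from the rest, since leukocytes express many of their genes and they are not independent of the division. The antigen presentation list shares 3 genes with the leukocyte lists, among them cd74a and cd74b, which are macrophage genes of the score. The chemokine and cytokine list and the lysosome list share 1 each. Counts and medians of these lists include the shared genes that were tested, and are circular to that extent. Chemokine and cytokine genes had 29 of 30 above 0 and a median of 1.44. That median was 0.67 with vector as a term and -0.04 in the R860Q tumours alone, where the median over all genes was -0.10. The cytokine tnfb was at 3.21 to 7.27 CPM in the immune-poor tumours. It was at 11.09, 13.9, 14.0 and 14.9 CPM in R161, R162, R164 and R165, without overlap. R162 and R164 were level, and tnfb was picked by p on this same comparison. Interferon-response genes had 26 of 35 above 0, at a median of 0.31, which was 0.09 with vector as a term and -0.24 in the R860Q tumours alone. Antigen presentation genes had 20 of 29 above 0 and a median of 0.33, which was 0.22 with vector as a term and 0.10 in the R860Q tumours alone. Socs1a, a feedback inhibitor of cytokine signalling, was at 24.6 to 31.2 CPM against 44.8, 65.5, 77.1 and 53.4 CPM. Ciita, the switch of MHC class II genes, was at 0.742 to 1.97 CPM against 3.27 to 4.37 CPM, and the complement stabiliser cfp was at 1.48 to 11.4 CPM against 22.8 to 38.7 CPM. Lysosome genes had a median of 0.16. Of the 4 lists that made the score, the medians were 1.27 for macrophages, 0.92 for neutrophils, 1.46 for T and NK cells and 1.32 for B cells, and genes shared by all leukocytes, which were left out of the score as a list, had a median of 1.23. In the R860Q tumours alone the T and NK median was -0.21.

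Whether the division differed between vectors was tested with an interaction term, in which 25 genes passed an adjusted p under 0.05 in edgeR's quasi-likelihood test. Genes with an unadjusted p under 0.05 for this term were no more than the 5% that chance passes. Since R161 was the only immune-rich R860Q tumour and R163 the only immune-poor EGFP tumour, this term picks out genes in which these tumours stand apart. Of the 25 genes 21 lay on the same chromosome in the RefSeq table, where 4.55% of the 13090 tested genes that it placed are found. In the longest run with gaps of at most 1000000 bases, 15 of these genes fell among 19 tested neighbours, and each of the 19 was higher in both R161 and R163 than in all the other 7 tumours. Among all genes tested, 343, or 2.26%, had that pattern. The 15 genes were picked by a term that favours this pattern, so for them it is no further evidence. Only apcdd1l, ctsz, eif2s2 and mych lay in the run without passing the interaction term. Over the run the level in R161 was a median of 8.61 times that of the other 7 tumours, with a range of 3.29 to 34.4, and in R163 a median of 4.77 times, with a range of 2.565 to 11.06. Ahcy, an enzyme of the methionine cycle, was at 2516 CPM in R161, at 857 CPM in R163 and at 123 to 193 CPM in the other tumours (adjusted p = 0.0162 for the interaction by edgeR's quasi-likelihood test). The G protein gene gnas was at 169 and 70.5 CPM against 7.58 to 17.05 CPM, and the respiratory chain gene cyc1 at 842 and 620.5 CPM against 56.1 to 120.1 CPM. DNA of the tumours was not analysed here, and these neighbours were looked at after the interaction genes were seen.

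**Figure D5:**
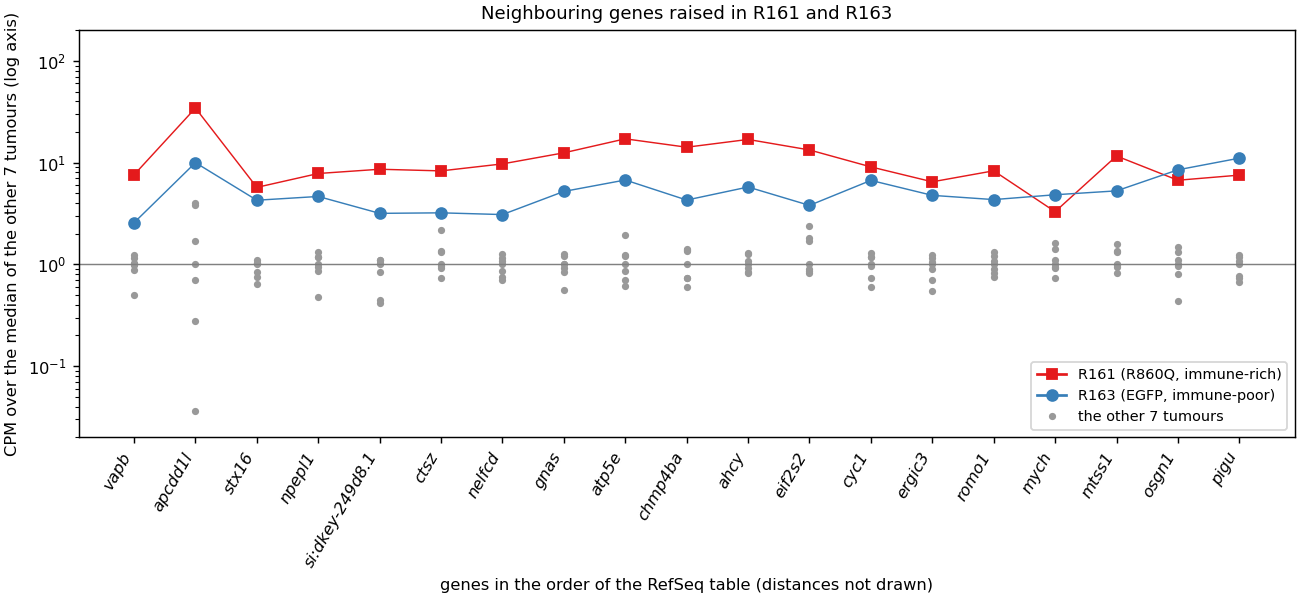
Normalised CPM of 19 neighbouring genes over the median of 7 tumours (log axis), in gene order with distances not drawn. R161 and R163, from opposite sets and vectors, lie above the 7 other tumours at each gene.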

How the data were processed

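RNA-seq of 9 melanomas was used, 5 with the CDK13 R860Q vector and 4 with the EGFP vector. Per the submitters' processing notes, the reads were processed with Bowtie and HTSeq on danRer10 (GRCz10), for which no version numbers are stated. The deposited files hold raw read counts for gene symbols, as the authors made them, with 1 unnamed line per table left out. Whether counting used strand is not stated, so that overlapping antisense partners may share reads, and near-identical copies (nkl, ugt5b and myosin genes, for example) can share reads. Ribosome-depleted, randomly primed RNA also holds unspliced transcripts.

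Counts were filtered with filterByExpr (minimum count 10, minimum total 15), normalised by TMM and compared with edgeR's quasi-likelihood test (edgeR 4.0.16, R 4.3.3, robust dispersion, Benjamini-Hochberg adjustment at 0.05 over all genes tested), with the set as the only term. The common biological coefficient of variation was 0.504. CPM were taken over the TMM-scaled library sizes, with 2 as the prior count before the log2. Where no read was counted, up to 3 counts are allowed, and such limits cover counting error only. DESeq2 1.42.0 and limma 3.58.1 (voom) were alternatives, along with other scalings and filters, vector or muscle terms, each vector alone, the score as a continuous term, and tumours left out. Leaving out R161 and R162 together, the interaction with vector and the score without TMM factors were added after seeing the data. The tests were checked on simulated counts.

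The members, the 42 gene lists and the rules were chosen with earlier results of these data known. The score was taken over 4 lists, the list of genes shared by all leukocytes being left out of it. Named genes were the 5 markers, the 8 genes of smallest p on each side outside the immune lists, the 2 of smallest p in each list outside the leukocyte lists, and cdk13, human CDK13 and mitfa. For the 8 on each side, genes with an immune prefix or a clone name (a colon or capital letter in the symbol) were passed over. The 8 are thus not always the smallest p of all genes outside the lists. Of the genes that this rule picks, 1 is not reported here. Lists were described by counts and medians only. Of the lists, the mitochondrially encoded genes had no tested member. Gene neighbours were taken from the RefSeq gene table of GRCz12tu, which is a different build, so no coordinates are given.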

Additional observations from a re-analysis of the deposited data

Results flagged for a closer look

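Outlying tumours were looked for in each list and set by the gap to the nearest tumour over the whole range of the set, in 82 tests, of which 4 passed Dixon's 95% critical value. Chance flags about 1 in 20 such groups. R162 lay apart in the immune-rich set for lysosome genes, with a score of -0.41 against 0.24 to 0.29 in the others (ratio 0.931), and for skeletal muscle genes, with 2.12 against -2.32 to -1.93 (ratio 0.912). R161 lay apart in the immune-rich set for immediate early genes, with -0.49 against 0.38 to 0.51 (ratio 0.879). R159 lay apart in the immune-poor set for Hox genes, with -1.04 against 1.51 to 1.84 (ratio 0.886). The interaction of set with vector picked out 25 genes, of which 21 lay on 1 chromosome. This interaction rests on R161 and R163, each the only tumour of its set and vector. It therefore describes genes in which these tumours stand apart, and cannot show that the difference between the sets depends on the vector.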

How the results depend on the processing

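The edgeR test called 0 genes on either side under every normalisation, filter and added covariate tried and with each tumour left out (0 to 0). It also called 0 without R162 and R164 and without R161 and R162, and limma voom with sample weights called 0 on either side. Genes were called in the settings given next. DESeq2 called 393 higher and 160 lower, the R860Q tumours alone 14 higher, the leukocyte score as a continuous term 173 higher and 6 lower, and an adjusted p under 0.10 22 higher and 1 lower. The R860Q tumours alone rest on R161, the lone immune-rich tumour there, which is assumed to vary like the others, and the continuous term uses the score of the same libraries. The cause was not tested for the other counts. Of the list medians 940 kept within the spread between tumours and 85 moved by more. This does not count changes of side. List medians changed side for 15 lists in the R860Q tumours alone and for 12 in the EGFP tumours alone. They did so for 7 without R165 and 7 with vector and muscle terms, and for fewer, down to 0, in the other settings. Single genes turned their direction in 22 cases. Rps3a was at -0.027 without R162 and R164 and at -0.27 without R161 and R162. Rps21 was at -0.19 and -0.69 in these settings, and its values with each tumour left out ran from -0.25 to 1.21. In the R860Q tumours alone egr3 was at -0.56, ctgfa at -1.12 and f5 at -0.55. F5 was at -0.43 with vector and muscle terms and between -0.23 and 1.09 with each tumour left out. Psmg2 was at 0.19 in the EGFP tumours alone. Mitfa, level between the sets, was at -0.032 with no filter, -0.35 with a vector term, -0.075 with a muscle term, -0.37 with both, -0.21 and -0.50 in EGFP and R860Q alone and -0.57 without R162 and R164, and between -0.33 and 0.16 with each tumour left out. No paired analysis was possible because no tumour number of the labels is found under both vectors. Depth limits low genes most, since 3 counts are worth more CPM in R162 than in any other tumour.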

Other observations

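Relative to the median of all genes in each subset, 16 of 31 lists outside the immune lists lay on the same side in the EGFP tumours alone, the R860Q tumours alone and all 9 tumours, and 15 did not. Among the 16 were Notch (0.41 in EGFP and 0.41 in R860Q tumours), oxidative phosphorylation (0.38 and 0.50), ribosomal proteins (0.70 and 0.25), MAPK targets (-0.49 and -0.44), cell cycle (-0.47 and -0.29), RNA surveillance (-0.33 and -0.19) and Hox genes (-3.07 and -0.51). Among those that did not were melanocyte (-0.15 and 0.85), immediate early (0.87 and -0.21), TGF-β and BMP (0.30 and -0.83) and skeletal muscle genes (4.06 and -7.56). Some of the 16 lay near 0 in 1 vector, such as DNA repair (-0.0015 in R860Q), splicing (-0.016 in EGFP) and endothelium (0.032 in R860Q). Lists that kept their side were about as many as those that did not, so the count alone shows no agreement between the vectors. Each subset has 1 tumour on one side, so these values carry no test.

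A few genes of other families set R161 or R163 apart in the same interaction term. Itpr1a, a calcium channel of the endoplasmic reticulum on the same chromosome as the run of neighbours, was at 408 CPM in R161, 12.4 CPM in R163 and 3.91 to 11.7 CPM in the other tumours. Aste1a was at 0 CPM in R163 and at 21.9 CPM or more in the other tumours.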
